A study of Drosophila melanogaster with 2 samples.

Results

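The 10 genes described here encode the core of canonical Wnt signalling in Drosophila melanogaster between the membrane and the target genes, and were chosen by name out of 13968 protein-coding genes. The 4 nuclear effectors are pan, which encodes the only fly TCF, an HMG-box DNA-binding protein; lgs, the BCL9-type adaptor; pygo, a PHD-finger protein that binds that adaptor; and gro, a corepressor that TCF recruits. The 5 cytoplasmic genes are dsh, the signal transducer below the receptors, and Axn, Apc, Apc2 and sgg, which encode the scaffolds and the GSK3 kinase of the destruction complex. The remaining gene, arm, encodes the fly beta-catenin, which acts in both places and was kept apart. Peaks were assigned to a gene when their summit lay inside it or up to 5 kb upstream.

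Without a Wnt ligand, the destruction complex phosphorylates arm protein and marks it for proteolysis, and pan with gro keeps target genes silent. When wg binds its receptors, dsh protein inhibits the complex, arm protein accumulates, enters the nucleus and joins pan, lgs and pygo on target genes. The pathway patterns the segments of the embryonic epidermis, among many other tissues.

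The libraries came from ChIP-seq on whole embryos aged 0 to 24 h that expressed a bbx-eGFP fusion protein from a transgene, precipitated with an antibody to GFP. They form 1 group with 2 biological replicates. The bbx protein itself carries an HMG box. A collection of 0 to 24 h spans all of embryogenesis and every cell type, so a peak gives no stage or tissue, and no untagged or other control profile was analysed here. The conservative set held 4753 peaks, all with an irreproducible discovery rate (IDR) between replicates of at most 0.01. The ranked list was read up to an IDR of 0.05, where it held 7360 peaks. Signal is the authors' enrichment value per peak. The pooled signal of conservative peaks ran from 2.08 to 1502 with a median of 104.8. Each peak also carries 1 value per replicate, in a first and a second column whose replicate numbers the files do not state. Where a member peak was also in a replicate's own list, the first column held the replicate 1 value and the second the replicate 2 value. The median ratio of the first to the second column was 1.25. Read totals were not given, so depth is unknown.

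Of the 10 genes, 6 had a conservative summit in their window, against 45.2% of all protein-coding genes under the same rule. At the ranked threshold 8 of 10 did, against 54.2% of all genes. With the summit at most 500 bp from an annotated transcription start site (TSS) of the gene, 5 of 10 had a conservative summit, against 30.8% of all genes, and 6 of 10 had a ranked one, against 37.3%. The members' windows are long, and among the 500 protein-coding genes of most similar window length the share with a conservative summit was 52.6% to 63.4%, depending on the member. The count of 6 of 10 therefore sits at the level of genes of the same length. No test was made on these counts, since the genes were chosen with results of these data known.

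The genes with a conservative summit at their own TSS were pan, gro, pygo, Axn and Apc. Stretches of 100 bases just upstream of the first annotated TSS are shown for these genes and for sgg, whose first TSS had a peak in replicate 1 alone. Capitals mark CGATA on either strand, the 5 bases that end the DNA replication-related element (DRE) and that the insulator protein BEAF-32 is known to bind. Bases are from Release 6 of the genome (dm6), 5′ to 3′ in the direction of transcription, ending at the base before the TSS.
pan, chr4:69226-69325, strand plus: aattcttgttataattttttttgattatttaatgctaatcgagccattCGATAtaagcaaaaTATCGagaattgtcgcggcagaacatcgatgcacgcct
gro, chr3R:26041636-26041735, strand plus: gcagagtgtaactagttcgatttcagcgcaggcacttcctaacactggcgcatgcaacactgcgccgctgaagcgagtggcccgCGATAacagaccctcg
pygo, chr3R:31580700-31580799, strand minus: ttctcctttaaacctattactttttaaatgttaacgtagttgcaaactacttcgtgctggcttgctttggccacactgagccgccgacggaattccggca
Axn, chr3R:30022742-30022841, strand plus: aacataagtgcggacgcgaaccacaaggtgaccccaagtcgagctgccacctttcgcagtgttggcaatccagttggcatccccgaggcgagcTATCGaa
Apc, chr3R:28844749-28844848, strand minus: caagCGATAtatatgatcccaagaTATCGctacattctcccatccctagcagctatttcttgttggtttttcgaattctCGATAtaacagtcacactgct
sgg, chrX:2633852-2633951, strand plus: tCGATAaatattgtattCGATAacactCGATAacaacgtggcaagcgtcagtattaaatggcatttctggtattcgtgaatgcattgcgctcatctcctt
The pan, gro, Axn and Apc stretches hold the letters, and the pygo stretch does not. The sgg stretch holds 3 matches without a conservative summit.

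The strongest member peak was that of pan, at chr4:69194-69423 with its summit 9 bp upstream of the first of 4 annotated TSSs. Its pooled signal was 360.6, with 194.7 in the first column and 173.0 in the second (183.8 ± 15.3, SD, n = 2). This value was above 92.3% of conservative peaks, and 89.0% of the genes with a TSS summit had a weaker one there. The same pair of replicate peaks also backs a second, overlapping pooled peak of signal 17.4 whose summit is 128 bp upstream of the second TSS, so it adds no separate measurement. Called alone, replicate 1 placed the pan summit 11 bp upstream of the TSS and replicate 2 placed it 2 bp downstream. A ranked peak of 40.4 (29.8 and 22.2 in the 2 columns) lay 611 bp upstream, at an IDR of 0.0243.

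The pan gene covers 44.9 kb of chromosome 4, a small and largely heterochromatic chromosome, and outside its TSS region the window was nearly empty. It held 3 ranked peaks of any IDR in 49.9 kb, 0.0601 per kb, against a median of 1.26 per kb over all protein-coding genes and 0.135 per kb over the 80 genes of chromosome 4. On that chromosome 33 of 80 genes were as sparse as pan or sparser. The window of lgs, the other member on chromosome 4, was not as sparse. It held 10 ranked peaks of any IDR, or 0.84 per kb, above that chromosome's median of 0.135. The sgg window, of almost the same length as that of pan (50.6 kb) but on the X chromosome, held 70 ranked peaks of any IDR, or 1.38 per kb. The share of protein-coding genes with a conservative summit was also lower on chromosome 4, at 23.8%, than on 3R (45.2%) or X (49.3%).

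The gro peak at chr3R:26041650-26041784 was next among the nuclear genes, with its summit 1 bp upstream of the first of 4 TSSs. Pooled signal was 227.9, and the replicate columns held 144.4 and 77.5 (110.9 ± 47.3, SD, n = 2). The first column was 1.86 times the second, within the 5th to 95th percentile of that ratio over all conservative peaks (0.691 to 2.16). Replicate 1 alone put the summit 15 bp upstream of the TSS and replicate 2 alone put it 10 bp upstream. The gro window reaches into the E(spl) complex, a cluster of Notch target genes, and its other summits belong to the start of E(spl)m7-HLH, a bHLH repressor gene. That peak had a pooled signal of 77.8 (42.3 and 31.6), lay 27 bp from the E(spl)m7-HLH TSS and 4725 bp from that of gro, and was the member summit closest to the 5 kb limit. A twin summit of 4.82 shares its replicate values.

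The peak of pygo was weak by comparison. At chr3R:31580578-31580933, its summit lay 57 bp upstream of the only TSS, with a pooled signal of 83.4 and 40.2 and 45.2 in the replicate columns (42.7 ± 3.56, SD, n = 2). It was above 34.7% of conservative peaks. The start of rod, a kinetochore gene transcribed away from pygo, is 195 bp from the summit, so the peak lies between 2 divergent starts 252 bp apart and cannot be given to either gene alone.

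The other nuclear gene, lgs, had no peak in either list. Its window on chromosome 4 held 10 ranked peaks, of which the one with the lowest IDR, 0.418, had a signal of 28.5 (12.2 and 15.6) and lay 4020 bp inside the gene. The strongest, at 40.3 (14.4 and 26.4), had an IDR of 0.512. Among genes of like window length 56.8% had a conservative summit. No summit of any thresholded list, pooled or of a single replicate, lay in the lgs window.

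The window of arm was also without a peak in either list. The closest candidate lay 9 bp upstream of the first of 4 TSSs with a pooled signal of 46.0 and replicate values of 31.1 and 19.2 (25.2 ± 8.38, SD, n = 2). Its IDR of 0.0653 kept it outside the ranked threshold. It was the strongest of 26 ranked peaks in that window. For comparison, the member peak just inside that threshold was one in Apc at an IDR of 0.0417, with signal 59.5 (40.1 and 20.5), and the one just outside was in sgg at 0.0503, with signal 39.5 (21.4 and 24.5).

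**Figure D1:**
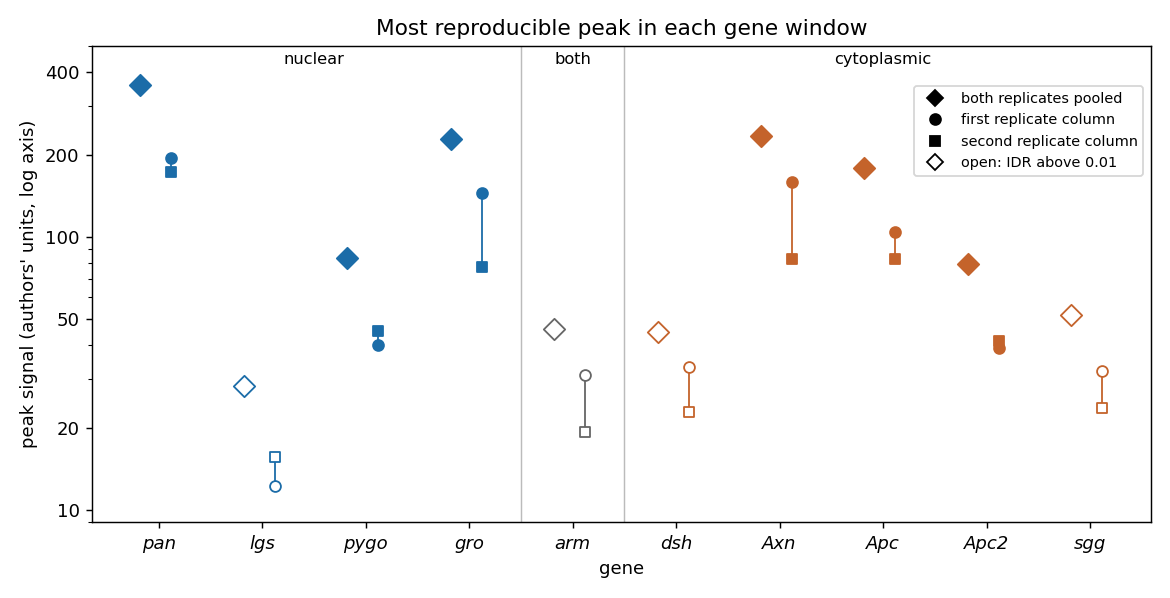
For each gene, the peak of lowest IDR in its window is plotted by pooled signal (diamond) and by the first (circle) and second (square) replicate column, on a log axis, with nuclear genes left, arm in the middle and cytoplasmic genes right. Filled symbols have an IDR of at most 0.01, and the Axn and Apc2 peaks shown lie at the starts of Mgat2 and Myo95E, with pan highest at 360.6 and lgs lowest at 28.5.

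Among the cytoplasmic genes, Apc had the strongest peak at its own TSS. The peak, chr3R:28844638-28844993, had its summit 68 bp upstream of the more distal of 2 TSSs, a pooled signal of 178.0 and replicate values of 104.5 and 82.8 (93.7 ± 15.4, SD, n = 2). Replicates alone put the summit 60 and 48 bp upstream. The divergent start of spg, which encodes a DOCK-family exchange factor, is 522 bp from that of Apc, and this region is also within 500 bp of a spg TSS. A separate peak of 83.8 (39.3 and 53.7) lay 14 bp from a spg TSS, and another of 71.8 (32.2 and 37.6) lay in a spg intron. Both fall in the upstream window of Apc and are nearer to spg. Inside Apc, ranked peaks of 59.5 in an intron and 44.5 in the 3′ UTR reached the ranked threshold and not the conservative one. The peak in the 3′ UTR lay 940 bp from the start of WASp, nearer than to an Apc TSS.

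The Axn peak at its own start, chr3R:30022644-30022999, had a pooled signal of 124.0 and replicate values of 67.9 and 66.8 (67.4 ± 0.782, SD, n = 2), with the summit 20 bp upstream of the first of 2 TSSs. Replicates alone put it 42 bp upstream and 11 bp downstream. It was above 58.9% of conservative peaks. RpS28a, a ribosomal protein gene, starts 194 bp away on the other strand, 174 bp from the summit. A stronger peak of 233.7 (158.3 and 83.2, 120.8 ± 53.1, SD, n = 2) lay 556 bp upstream of Axn and 65 bp from the TSS of Mgat2, an N-glycan-processing glycosyltransferase gene. The strongest signal in the Axn window is thus at the start of another gene. Inside Axn, ranked peaks of 46.3 (28.1 and 23.2) and 48.6 (22.2 and 25.7) lay 3.18 and 8.98 kb past the first TSS. Both were nearer to the start of a noncoding gene than to an Axn TSS. The former lay 195 bp from that of lncRNA:CR46111 and the latter 3084 bp from that of asRNA:CR44045. A peak of 109.9 (78.3 and 36.7) lay 7406 bp upstream, near CG7920, and was the conservative peak just outside the 5 kb limit.

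Apc2, the Apc paralogue known for its role in the early embryo, had no peak within 500 bp of its TSS. Its single conservative summit, chr3R:24161323-24161678, was 2465 bp upstream and 3 bp from the TSS of Myo95E, a myosin gene, with TBC1d7 starting 226 bp away on the other strand. The pooled signal was 79.7 (39.1 and 41.7, 40.4 ± 1.83, SD, n = 2). It was the only member region with the full DRE palindrome within 100 bp of a summit (within 200 bp the pygo region has one too). The palindrome is shown in capitals within 30 bases at the summit.
Myo95E, chr3R:24161490-24161519, strand minus: ctcagagactaTATCGATAtggtcgtcgat
A ranked peak of 48.7 (25.1 and 22.3) lay 4132 bp upstream of Apc2.

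The genes dsh and sgg entered only at the ranked threshold. The dsh peak lay in coding sequence, 600 bp past the TSS, with a signal of 44.9 (33.3 and 22.8, 28.0 ± 7.42, SD, n = 2) at an IDR of 0.0184. The sgg peak lay 7 bp upstream of the 10th of 11 annotated TSSs, with 51.8 (32.3 and 23.6, 27.9 ± 6.16, SD, n = 2) at an IDR of 0.0155.

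Both genes had stronger peaks that the replicates did not share. The series' other thresholded set, with 5798 peaks, listed 3 in sgg and 1 in the dsh window that the conservative set lacks. In sgg, a peak 405 bp upstream of the 9th TSS had a pooled signal of 106.3 but 93.7 in the first column against 21.3 in the second, a ratio of 4.40. An intronic sgg peak had 71.2 and 11.5, a ratio of 6.19, and the one 31 bp upstream of the first TSS had 41.4 and 16.3, a ratio of 2.53. The dsh peak, 4379 bp upstream in an intron of another gene, had 47.2 and 8.99, a ratio of 5.25. All 4 ratios exceeded the 95th percentile of 2.16 over the conservative peaks. That set was itself selected for agreement between replicates, so the percentile does not measure how unusual these ratios are. Replicate 1's own list of 4626 peaks held all 4, and replicate 2's list of 3332 held none of them. The 6 members of the conservative set were in both lists.

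**Figure D2:**
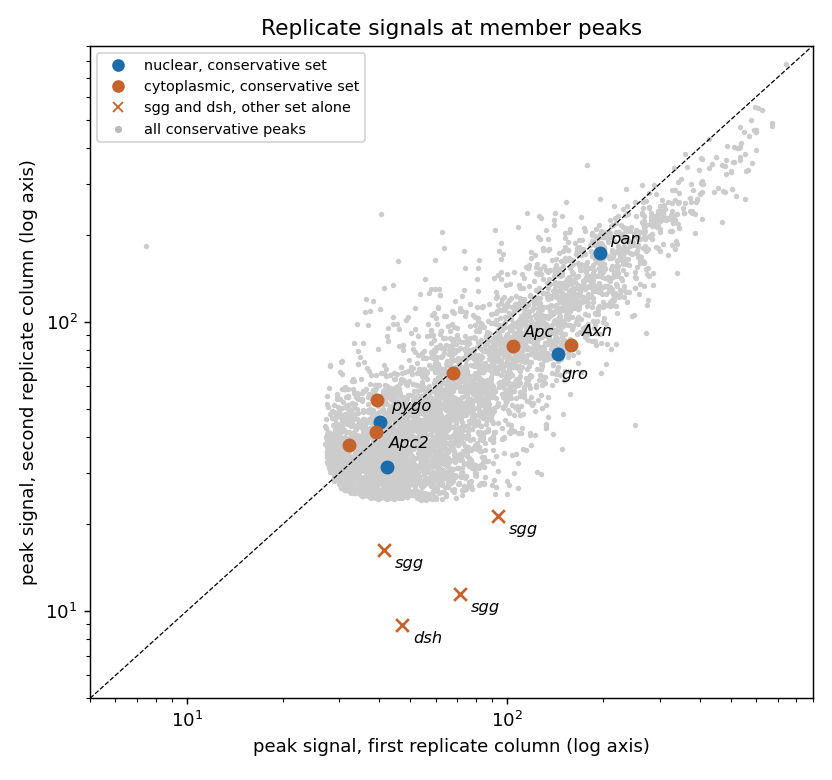
Each peak is plotted by its signal in the first replicate column (x) and the second (y), both log axes, with equal values on the dashed line and the label of each gene at the highest peak of its window. Grey points are all 4753 conservative peaks, blue and orange points are conservative peaks of nuclear and cytoplasmic genes, and the 4 crosses of sgg and dsh lie below the grey points, with second-column values of 8.99 to 21.3.

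**Figure D3:**
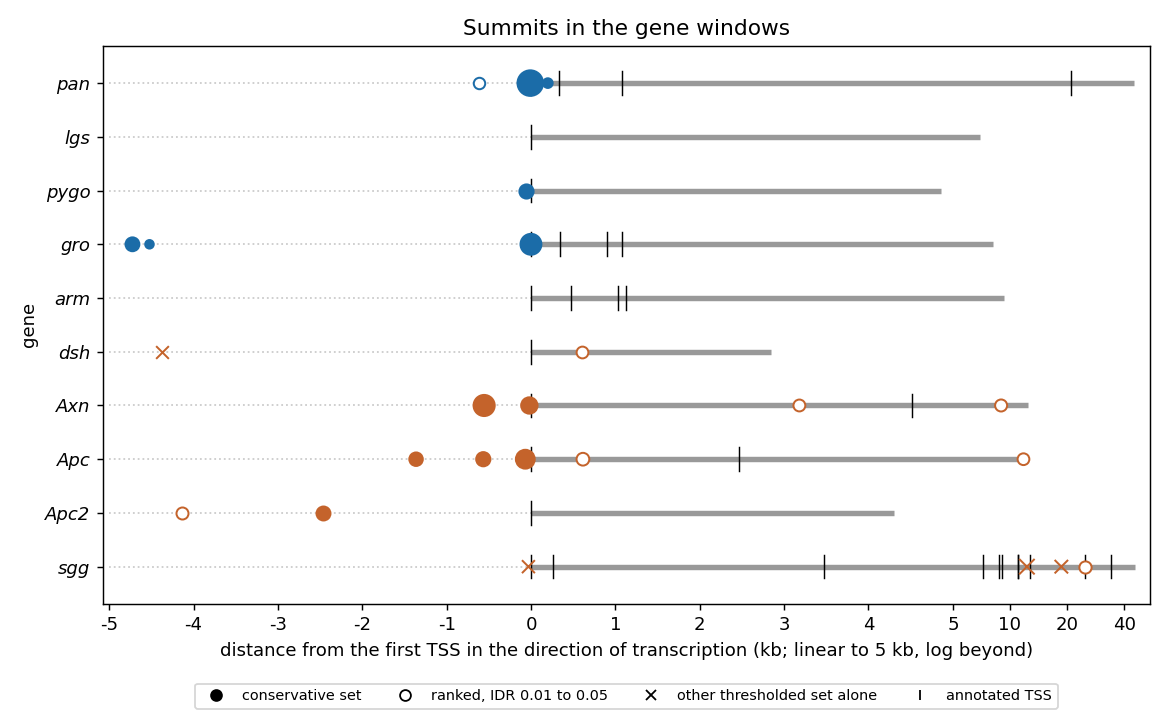
Summits are placed by distance from each gene's first TSS in kb (linear to 5 kb, log beyond), with area growing with pooled signal, the gene as a grey bar and annotated TSSs as ticks. The own-TSS summits of pan, gro, pygo, Axn and Apc sit 1 to 68 bp upstream of 0, and the interiors of all 10 genes hold only ranked peaks, peaks of the other set and the pan twin.

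By role, 3 of 4 nuclear genes and 3 of 5 cytoplasmic genes had a conservative summit, against 45.2% of all genes and, among genes of like window length, a mean of 57.0% for the nuclear and 56.8% for the cytoplasmic genes. With ranked peaks the counts were 3 of 4 and 5 of 5, against 54.2% of all genes and like-length means of 68.0% and 67.2%. At a TSS they were 3 of 4 and 2 of 5, against 30.8% of all genes and like-length means of 43.4% and 42.0%. With 4 and 5 genes, no difference between the classes was tested. Each class had 6 conservative summits, and the nuclear windows had 7 ranked summits against 13 in the cytoplasmic ones. Both nuclear counts include the twin summits in the pan and gro windows, which add no separate measurement. With overlapping peaks merged, the members held 10 conservative summits in place of 12. The strongest conservative signal per gene was 360.6, 227.9 and 83.4 for pan, gro and pygo, with a median of 227.9, and 233.7, 178.0 and 79.7 for Axn, Apc and Apc2, with a median of 178.0. The ranges overlap between 83.4 and 233.7, with pan above and Apc2 below the shared stretch. The ratio of the medians was 1.28 in pooled signal. In the first column the medians were 144.4 in nuclear and 104.5 in cytoplasmic genes, a ratio of 1.38, and in the second they were 77.5 and 82.8, a ratio of 0.936. The replicate columns thus disagreed on which class was higher. These values include the Axn and Apc2 window peaks at the starts of Mgat2 and Myo95E. With own-TSS summits alone, of 3 nuclear and 2 cytoplasmic genes, the pooled medians were 227.9 in nuclear and 151.0 in cytoplasmic genes. In the first column they were 144.4 and 86.2, a ratio of 1.68, and in the second 77.5 and 74.8, a ratio of 1.04. Both own-TSS ratios were above 1, with pygo below and pan above both cytoplasmic genes in each column.

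In descending order of own-TSS signal the genes were pan (360.6), gro (227.9), Apc (178.0), Axn (124.0) and pygo (83.4). The replicate values of pan (173.0 and 194.7) were above those of every other gene. Those of gro (77.5 to 144.4) enclosed both values of Apc (82.8 and 104.5), so these neighbours do not differ beyond their spread, and the values of Axn (66.8 and 67.9) lay below both and above those of pygo (40.2 and 45.2). The median over these 5 genes was 178.0, against 133.3 over the 4304 genes with a TSS summit. The protein-coding genes with a TSS peak most like that of pan in both replicate columns were CG4318 and CG4332, which share 1 summit of 355.4 (196.2 and 171.9).

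**Figure D4:**
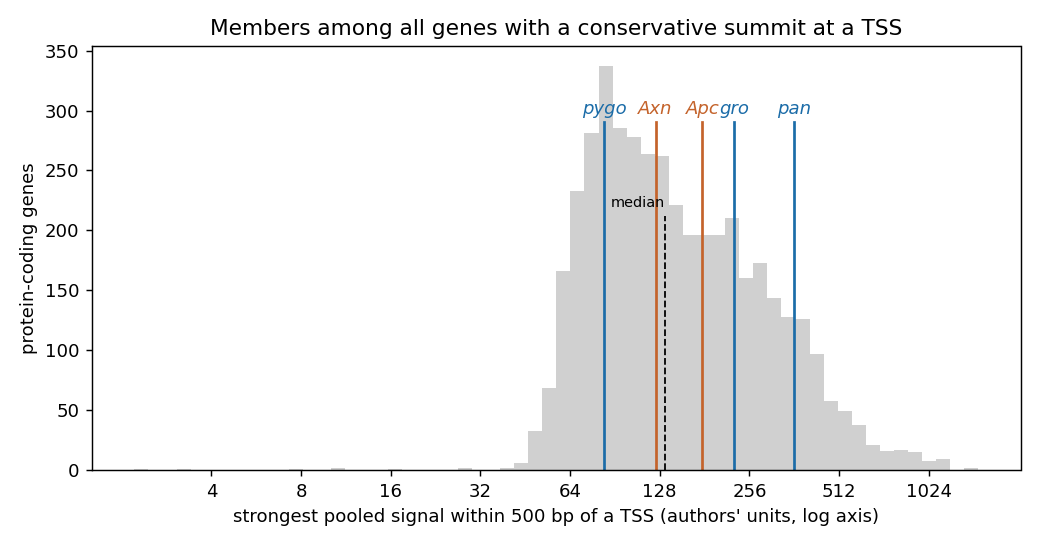
The histogram counts the 4304 protein-coding genes with a conservative summit within 500 bp of a TSS by their strongest pooled signal there, on a log axis, and vertical lines mark the 5 members with such a summit. The dashed line is the median of 133.3, which lies above pygo (83.4) and Axn (124.0) and below Apc (178.0), gro (227.9) and pan (360.6).

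By chromosome, all 5 members on 3R (pygo, gro, Axn, Apc and Apc2) had a conservative summit, against 1 of 2 on chromosome 4 (pan but not lgs) and 0 of 3 on X (arm, dsh and sgg). The X chromosome as a whole was not poor in peaks, since 49.3% of its protein-coding genes had a conservative summit, against 45.2% on 3R. The own-TSS summits of pygo, Axn and Apc lay between divergent starts 252, 194 and 522 bp apart. The share of such starts over all genes was not counted, so this describes only these 3 genes.

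Sequence around the summits was searched on both strands in windows of 100 bp to either side. Overlapping peaks were first joined and the strongest summit kept, which left 10 member regions and 4470 conservative regions. CGATA was found in 6 member regions (60%), against 57.9% of all conservative regions and 37.1% of equal windows at 19275 protein-coding TSSs. The 6 regions were the own starts of pan, gro, Axn and Apc and the summits at Mgat2 and Myo95E. In pan the centres of the matches lay 41 and 27 bp before and 14 bp past the summit, and in gro 13 bp before and 9 and 16 bp past it. The Axn match was 15 bp past the summit and the nearest Apc match 6 bp from it. The DRE itself (TATCGATA, which holds CGATA on both strands) was in 1 region (10%), against 18.5% of all conservative regions. The TCF site CTTTGA, which pan protein is known to bind, was in 0 of the 10 regions, against 8.52% of all conservative regions and 11.2% of TSS windows. Extended to 200 bp to either side, the search found it in 3 member regions (30%) and in 803 of the 4470 conservative regions. The TCF helper GCCGCC was in the pygo region and in that of E(spl)m7-HLH (20%), against 11.5% of all regions. The Sox core ACAAT was in 2 regions (20%), against 42.3%. The promoter motif GTCACAC was in 2 (20%), against 9.04%, and the E-box type CAGCTG in 2 (20%), against 16.2%. GAGAG was in 1 (10%), against 27.1%, and the zld site CAGGTA in 1 (10%), against 4.52%. TATAAA was in 5 (50%), against 20.7% of all conservative regions and 26.9% of TSS windows. Within 50 bp it was in 1 (10%), against 7.99% of all regions. These are all the motifs searched, and no share was tested.

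Over the 100 bases before the first TSS, CGATA occurred in 5 of 10 members and in 3940 of 13968 protein-coding genes (28.2%). A conservative TSS summit was present in 4 of the 5 members with the letters (pan, gro, Axn and Apc, but not sgg), and in 1 of 5 without them (pygo, but not lgs, arm, dsh or Apc2). Over all genes the shares were 57.9% with the letters and 20.2% without.

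Other Wnt pathway genes were counted in 4 lists. Of these 51 genes, 40 (78.4%) had a conservative summit in their window, against 60% of the 10 members and 45.2% of all genes, and 34 (66.7%) had one at a TSS, against 30.8% of all genes. Among genes of like window length the mean share was 56.4% for the window and 41.0% at a TSS. By list, the window mean ran from 55.7% (cytoplasmic kinases and turnover) to 57.2% (receptors and coreceptors). Receptors and coreceptors had a summit in 12 of 12 genes, 11 of them at a TSS. The highest were dlp, a glypican, at 586.3 (386.2 and 236.3), fz3, a Frizzled receptor, at 364.5 (227.9 and 141.8) and fz4 at 222.8 (131.5 and 84.6). RecQ5 also starts within 500 bp of the dlp summit. The genes for cytoplasmic kinases and arm turnover had one in 13 of 14 genes, 11 at a TSS. CkIalpha, the kinase that primes arm protein for sgg, had 698.8 (406.4 and 280.4), above every member. Pp2A-29B, a phosphatase scaffold, had 518.1 (264.7 and 221.7), and SkpA, a subunit of the ubiquitin ligase that takes arm protein, had 305.1 (174.0 and 121.3) at a summit that lay nearer, 22 bp, to the start of Hmt4-20. The strongest summit in the Hipk window (435.8) lay 58 bp from the start of klar, with BORCS6 also starting within 500 bp, and Hipk had no summit at its own TSS.

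Nuclear cofactors had a summit in 11 of 14 genes, 8 at a TSS, with the highest at Rtf1 (445.1; 257.2 and 193.8), kto (331.4; 218.7 and 113.6) and hyx (233.9; 142.0 and 101.1). Rtf1 and hyx belong to the Paf1 complex of elongating RNA polymerase, and kto to the Mediator kinase module. Ligands and genes for their release had a summit in 4 of 11 genes (36.4%), the lowest share of the lists. The highest were Wnt4 at 120.7 (77.6 and 42.5), Wnt5 at 101.1 (56.9 and 46.3) and wg at 87.8 (43.9 and 49.8). The share over all genes was 45.2% in the window and 30.8% at a TSS. Among genes of like window length the mean window share was 55.8% for the nuclear cofactors and 57.0% for the ligands. At a TSS the like-length mean for the nuclear cofactors was 40.5%. No difference between the lists was tested.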

How the data were processed

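ChIP-seq of bbx-eGFP was measured in 2 biological replicates of 1 group of embryos, per the labels. Per the deposited text files, the authors derived peaks on dm6 from their alignments with 1 control alignment, and then compared replicates by IDR. No aligner, peak caller or setting is named in the sources used here. Depth per sample is unknown. The deposited signal is the authors' enrichment per peak in pooled reads or in 1 replicate, with a scaling that is not given. The deposited score is the authors' rescaled IDR, and the deposited −log10 values hold the caller's q and the IDR. Values are peak calls, so weak occupancy below the caller's threshold is not seen.

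Here, summits were assigned to genes of Ensembl release 115 on the 7 chromosomes, leaving out transposable element genes. Positions are 1-based, and peak ends lay within the Release 6 chromosome lengths. Signal is given as the mean ± SD over 2 replicate columns. No test was made: there is 1 group, and genes and peaks are not replicates. The members and lists were chosen with earlier results of these data known. Genes named are the members, genes whose TSS is nearer to a member summit, peaks next to each limit, up to 3 of the strongest genes per list, and the genes most like pan. RpS28a, rod, TBC1d7, klar, BORCS6, Hmt4-20 and RecQ5, which start within 500 bp of a summit named in the text, were added after their values were seen. The WntD, swim and hipk symbols were matched to wntD, Swim and Hipk. The assignment step was checked on simulated peaks. Alternatives were other peak sets, IDR thresholds, upstream distances, assignments and single replicates. Python 3.11.15, NumPy 2.4.6, pandas 2.3.3 and Matplotlib 3.10.9 were used.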

Additional observations from a re-analysis of the deposited data

How the results depend on the processing

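Without replicate 1, the ratio of nuclear to cytoplasmic median signal turned to 0.936. That rests on the same values as the second-column ratio and is no separate result. Without replicate 2 the ratio was 1.54. It was 2.14 in the other thresholded set, 2.86 in ranked peaks up to an IDR of 0.05 and 1.77 for 10 kb upstream, where sgg, and in the first 2 of these also dsh, add cytoplasmic peaks. For 0 kb upstream it had no value. Counting arm in either class could not change the main ratio of 1.28, since arm has no conservative summit in its 5 kb window. With 10 kb upstream arm did have a conservative summit. The 1.77 leaves arm out, and its placement was not varied there. Taken from own-TSS summits, an alternative chosen after seeing the data, the ratio was 1.68 in the first and 1.04 in the second column. The summits in the members' windows numbered 6 at an IDR of at most 0.001, within 500 bp of a TSS, or when given to the gene with the nearest TSS, 20 in ranked peaks, 1 with 0 kb upstream, and 9 to 12 with a replicate left out. Members with a summit numbered 1 with 0 kb upstream, 4 to 8 under the other alternatives, and 6 to 8 with a replicate left out. All genes with a summit numbered 2048 with 0 kb upstream and 3572 by the nearest TSS, with 5128 to 6226 when a replicate was left out. The median strongest member signal was 142.2 in the other set, 130.7 in ranked peaks, 17.4 with 0 kb, 136.4 with 10 kb, and 80.1 to 99.1 in single replicates, whose signal is on its own scale. The CGATA count was 6 and 7 with windows of 50 and 200 bp, and that of TATAAA was 1 and 6. No paired analysis was possible because there is only 1 group and no test. Depth is unknown, so whether reads were too few for peaks in arm or lgs, or at the TSS of Apc2, was not tested.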
